A study of Mus musculus with 4 samples.

Results

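Cytochrome P450 enzymes are heme proteins that insert an oxygen atom into sterols, steroids, vitamins, fatty acids and foreign compounds. The genes described here are the rows of the deposited tables whose symbol is Cyp followed by a family number, a subfamily letter and a gene number, together with Por, which encodes the reductase that feeds electrons to the P450s of the endoplasmic reticulum. This rule found 95 of the 33641 gene symbols, 94 P450 genes in 16 families and Por. The rule reads the symbols alone, although it was set with earlier results of these data known. Genes whose symbols carry another form, such as Cyp51 of cholesterol synthesis and the pseudogenes, are outside it.

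RNA was sequenced in 4 libraries of primary cardiac fibroblasts from wild-type C57BL/6J mice of 12 weeks. The 2 TGFbeta libraries came from cells given TGFbeta, a growth factor that drives fibroblasts towards matrix-producing myofibroblasts, at 10 ng/ml, and the 2 vehicle libraries from cells given vehicle. All cells, vehicle included, were cultured, fed the uridine analogue 4-SU at 20 and 4 h before harvest and crosslinked with light of 368 nm. By the design text the RNA was recovered from complexes with the RNA-binding protein HuR, whereas the sample labels describe total RNA, of which 1 ug entered each library. No input library was analysed here, so binding to HuR and abundance in the cell cannot be told apart. Nor can fewer cells of a type and less RNA per cell. The labels do not say whether the libraries of a group came from separate animals or cultures, so p-values measure the spread between these libraries alone.

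In textbook terms, P450s with broad substrate ranges (families 1 to 3) clear drugs and pollutants and are most abundant in liver, whereas others act on one class of endogenous molecule. Microsomal P450s take electrons from the Por product and mitochondrial P450s take them through ferredoxin. In fibroblasts Cyp1b1 is the best known member, and it is induced through the aryl hydrocarbon receptor.

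Of the 95 genes, 66 were silent, which means that they lay under 1 TPM (a level per transcript length, scaled to the same total in every library) in all 4 libraries. The silent share was 69.5%, against 49.5% of all 33641 symbols. Of the silent genes, 34 were listed at 0 in every library and 32 lay above 0. The other 29 genes reached 1 TPM somewhere, 25 of them had a mean of at least 1 TPM over the 4 libraries and were tested, and 9 had at least 10 TPM in every library. Read depth is unknown, so a value of 0 here carries no upper limit. Just inside the limit of silence stood Cyp2ab1, with a highest value of 0.98 TPM, Cyp2j13 with 0.959 TPM and Cyp2d11 with 0.921 TPM, and just outside stood Cyp11a1 with 1.04 TPM, Cyp27b1 with 1.12 TPM and Cyp2j5 with 1.22 TPM.

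The silent share differed between families. All 7 genes of family 3, which oxidises a large part of all drugs in liver, were silent, and the highest value in that family was 0.101 TPM. Of the 49 genes of family 2, 40 were silent and 22 of those were listed at 0. In family 4, which hydroxylates fatty acids at the omega end, 10 of 17 were silent. By contrast, 4 of 6 genes of cholesterol oxidation and bile acid synthesis and 2 of 3 genes of retinoic acid clearance were not. Of 8 hepatocyte markers, 5 (Alb, Ttr, Serpina1a, Tat and Fgb) were listed at 0 in all libraries, and the summed level of the 8 was 0.697 to 0.996 TPM in TGFbeta libraries and 0.67 to 1.04 TPM in vehicle libraries.

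**Figure D1:**
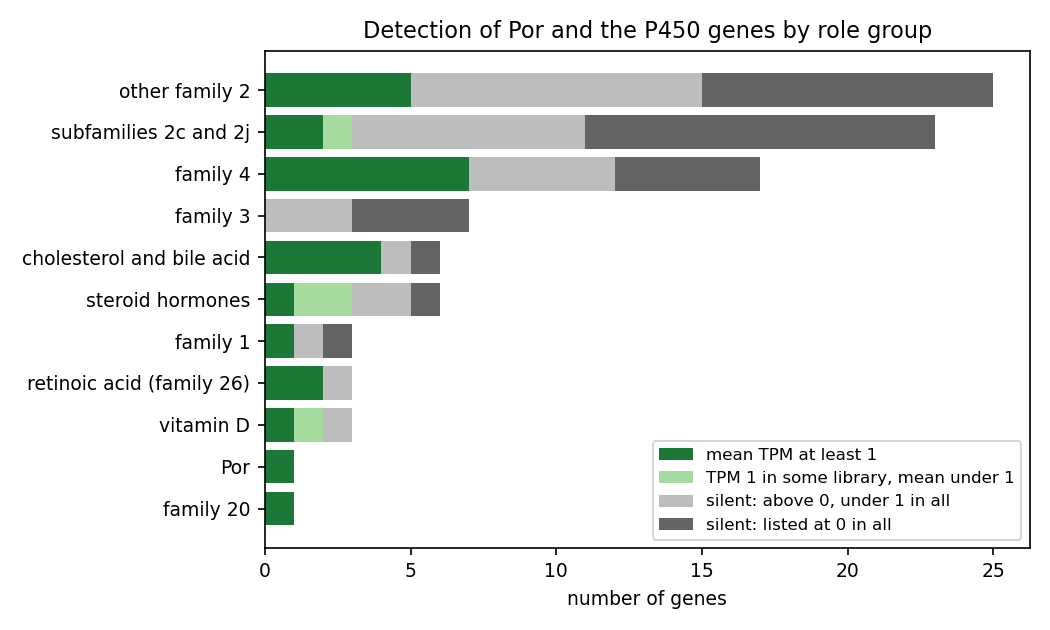
Number of genes in each role group (x axis) split by detection: mean of at least 1 TPM, 1 TPM in some library with a mean under 1, silent but above 0, and listed at 0 in all 4 libraries. Family 3 has no gene in either green class, while 4 of the 6 cholesterol and bile acid genes have a mean of at least 1 TPM.

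Most of the silent genes stood in gene clusters. By GENCODE M21 (GRCm38), in which 94 of the 95 symbols were matched, 71 genes lay in 10 clusters whose neighbouring members are at most 500 kb apart, and 14 of these 71 were not silent. Among the 23 genes outside clusters, 15 were not silent. The Cyp2c cluster on chromosome 19 (39007019 to 40187333) held 14 genes, all silent, and the Cyp3a cluster on chromosome 5 (145345279 to 146113287) held 6, all silent. The Cyp2d cluster on chromosome 15 (82370527 to 82794294) held 1 gene above the limit, Cyp2d22, among 8. The Cyp4f cluster on chromosome 17 (32452723 to 32947402) held 3 among 8, which were Cyp4f13, Cyp4f16 and Cyp4f17.

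Cluster members resemble each other, so their reads can be assigned to the wrong copy. The share of 50-base stretches of a gene's transcripts that also occur in transcripts of another gene was 20.6% for Cyp4a31 (mostly shared with Cyp4a32), 17.4% for Cyp4f16 (with Cyp4f37), 8.26% for Cyp4b1 (with a pseudogene) and 7.02% for Cyp4v3 (with the overlapping Gm45753). It was at most 4.64% for the other genes that reached 1 TPM and 0 for Por, Cyp1b1, Cyp27a1, Cyp39a1, Cyp7b1 and Cyp46a1. Cyp2t4 overlaps Egln2 on the opposite strand, and Egln2 had 73.5 and 58.1 TPM in TGFbeta libraries and 83.3 and 88.4 TPM in vehicle libraries. Whether counting used strand is not given in the sources used here, so values of Cyp2t4 are uncertain.

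The sequences shown here are the 250 bases before the RefSeq start site (GRCm38.p6) of 4 of the tested genes. Cyp46a1 and Cyp4b1 were among the 11 members lower in both TGFbeta libraries. Cyp20a1 had the highest log2 change with the pseudocount of 1, and Cyp1b1 had the highest mean level among the P450 genes selected by symbol. Capitals mark GCGTG (core of the element bound by the aryl hydrocarbon receptor), CAGAC (a Smad box, AGAC, with 1 more base) and GGGCGG (a GC box), each on either strand, with no overlaps between marked motifs.
Cyp46a1: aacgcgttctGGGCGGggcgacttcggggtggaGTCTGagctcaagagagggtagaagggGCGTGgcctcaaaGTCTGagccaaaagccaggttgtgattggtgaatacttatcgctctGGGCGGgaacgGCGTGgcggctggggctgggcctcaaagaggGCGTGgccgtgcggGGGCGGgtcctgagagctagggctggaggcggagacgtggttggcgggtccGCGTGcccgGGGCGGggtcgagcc
Cyp4b1: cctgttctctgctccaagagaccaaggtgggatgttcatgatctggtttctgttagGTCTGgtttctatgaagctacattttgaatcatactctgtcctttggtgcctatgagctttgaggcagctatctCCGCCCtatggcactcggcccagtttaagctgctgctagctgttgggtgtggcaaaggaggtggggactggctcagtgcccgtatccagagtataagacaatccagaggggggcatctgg
Cyp20a1: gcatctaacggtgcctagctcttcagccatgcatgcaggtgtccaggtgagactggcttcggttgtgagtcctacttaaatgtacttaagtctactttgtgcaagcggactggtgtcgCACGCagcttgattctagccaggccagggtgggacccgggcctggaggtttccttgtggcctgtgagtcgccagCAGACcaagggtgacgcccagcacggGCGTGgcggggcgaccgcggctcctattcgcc
Cyp1b1: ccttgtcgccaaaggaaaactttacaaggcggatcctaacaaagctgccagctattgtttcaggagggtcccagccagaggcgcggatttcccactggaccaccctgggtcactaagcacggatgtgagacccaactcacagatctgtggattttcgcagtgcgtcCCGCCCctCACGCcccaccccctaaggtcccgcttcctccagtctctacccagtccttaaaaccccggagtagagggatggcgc
The stretches lie at chr12:108334066-108334315 (plus strand) for Cyp46a1, chr4:115647722-115647971 (minus strand) for Cyp4b1, chr1:60343050-60343299 (plus strand) for Cyp20a1 and chr17:79715062-79715311 (minus strand) for Cyp1b1. Cyp46a1 held 4 GCGTG, 2 CAGAC and 4 GGGCGG motifs. Cyp4b1 held 1 CAGAC and 1 GGGCGG, Cyp20a1 held 2 GCGTG and 1 CAGAC, and Cyp1b1 held 1 GCGTG at 76 bases and 1 GGGCGG at 84 bases before the start. Of 32851 windows of this length in the table, 28.2% held GCGTG, 42.2% held CAGAC and 32.7% held GGGCGG. Of the 84 windows of members, 17 held GCGTG, 32 held CAGAC and 18 held GGGCGG. Each is a smaller share than among all windows, a difference that was not tested. The table had an entry for 74 of the 95 genes, some with more than 1 window, and none for Cyp39a1 or Cyp7b1. A match is a run of letters, not a bound site.

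TGFbeta against vehicle gave no called P450 gene. Levels were compared as log2(TPM + 1) with limma over all 15815 genes with a mean of at least 1 TPM, and a gene was called at an adjusted p (Benjamini-Hochberg over all of them) under 0.05. Of the 25 tested members, 0 were called higher and 0 lower by limma, against 1.54% higher, 4.38% lower and 5.92% either way among all tested genes. An unadjusted p under 0.05 was found for 9 members, 1 higher and 8 lower, which is 36%. Among all tested genes it was found for 24.5%, made up of 5.98% higher and 18.5% lower, while the members' 8 lower made 32%. The smallest adjusted p among the members was 0.0609 (limma). For 16 of the 25 the 95% confidence interval of the log2 change lay between -1 and 1, as it did for 11759 of all 15815 tested genes. Because of the pseudocount, these limits are wider than a 2-fold difference in TPM for genes at low levels.

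Without a variance model, 11 members had both TGFbeta libraries below both vehicle libraries, which is 44% of the 25, against 39.8% of all tested genes. Both TGFbeta libraries lay above both vehicle libraries for 3 members, which is 12%, against 15.5% of all tested genes, and the 2 directions together made 56%, against 55.3%. The median log2 change of the members was -0.21, against -0.13 over all tested genes, and 19 of the 25 (76%) were negative, against 64.8% of all tested genes. Because the median of all genes was itself below 0, values were also taken with the libraries scaled to 1 median. The members' median was then -0.06, against 0.03 over all tested genes, 13 of 25 (52%) were negative against 46.8%, 9 members lay lower in both TGFbeta libraries (36%, against 24.7% of all tested genes) and 6 lay higher (24%, against 29.3%). After scaling, the members' share with both TGFbeta libraries lower exceeded that of all genes by more than before. Their share of negative changes exceeded it by less than before. None of these differences was tested.

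**Figure D2:**
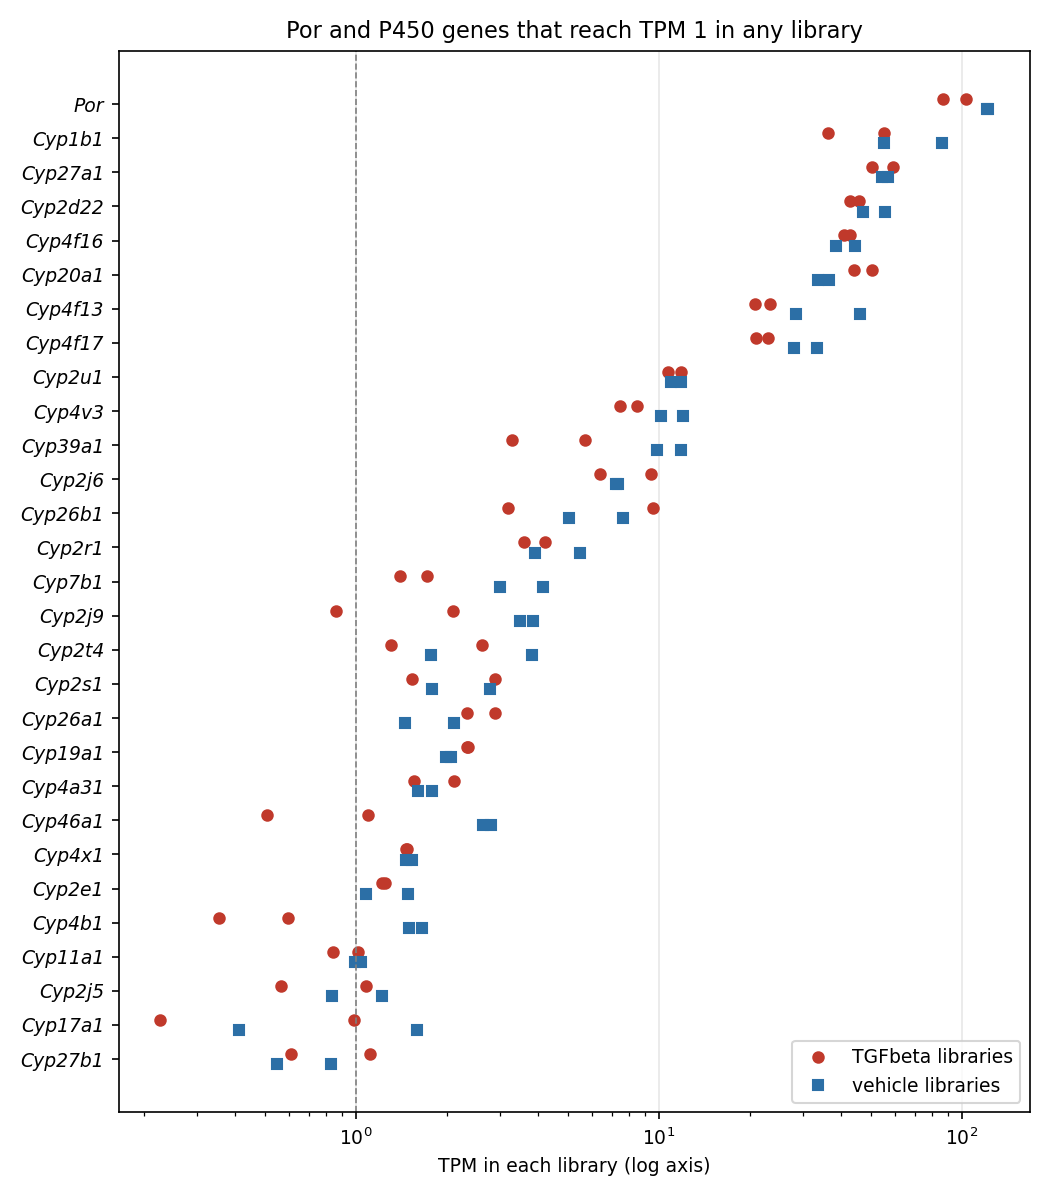
TPM on a log axis in each TGFbeta library (circles) and vehicle library (squares) for Por and the 28 P450 genes that reached 1 TPM, ordered by mean level. Cyp39a1, Cyp7b1, Cyp46a1 and Cyp4b1 show both TGFbeta points left of both vehicle points, and the dashed line marks 1 TPM.

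The electron donor Por (GRCm38 chromosome 5, 135670033 to 135735326, plus strand) was the most abundant of the 95 genes. It had 103 and 86.5 TPM in TGFbeta libraries and 122 and 121 TPM in vehicle libraries. The groups did not overlap, and the TGFbeta libraries differed more from each other than the vehicle libraries did. The log2 change of Por was -0.36 (SE 0.14, 95% interval -0.71 to -0.02, limma adjusted p = 0.189). It was -0.21 with the libraries scaled to 1 median (limma adjusted p = 0.476).

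Summed over the 94 P450 genes, the level was 332 and 360 TPM in TGFbeta libraries and 409 and 412 TPM in vehicle libraries. The 8 most abundant genes made up 85.2% and 81.9% of that sum in TGFbeta libraries and 80.9% and 81.8% in vehicle libraries. An exact permutation test of the 4 libraries has 6 arrangements and a smallest two-sided p of 0.333. The 100 most abundant genes of the transcriptome took 29.8% and 27.0% of all TPM in TGFbeta libraries and 23.3% and 24.4% in vehicle libraries. Divided by the median TPM of tested genes in the same library, the P450 sum was 22.6 and 23.9 in TGFbeta libraries and 23.6 and 25.7 in vehicle libraries, and the groups then overlapped. Microsomal P450s among the 94 summed to 2.63 and 3.55 times the Por level in TGFbeta libraries and to 2.88 and 2.9 times in vehicle libraries. These groups overlapped too. P450 genes with symbols of another form are in none of these sums. Among them, Cyp51 had 177 and 207 TPM in TGFbeta libraries and 144 and 126 TPM in vehicle libraries. Ptgis, the P450-type prostacyclin synthase, had 259 and 217 TPM in TGFbeta libraries and 183 and 223 TPM in vehicle libraries. Sums that include these genes were not taken.

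Cyp1b1 (chromosome 17, 79701537 to 79715061, minus strand), which oxidises oestrogens and polycyclic hydrocarbons, had the highest mean level among the P450 genes selected by symbol. It had 36.2 and 55.2 TPM in TGFbeta libraries and 85.7 and 55.4 TPM in vehicle libraries. The higher TGFbeta library and the lower vehicle library were almost equal, so the groups were barely apart. Its log2 change was -0.61 (SE 0.28, limma adjusted p = 0.238), and ran from -0.92 to -0.30 over the settings tried. Its family members Cyp1a1, with at most 0.0542 TPM, and Cyp1a2, listed at 0, were silent.

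With the pseudocount of 1, genes that oxidise cholesterol and its products held both of the lowest log2 changes among the members. This order depended on the pseudocount. At 0.1 the log2 change was -1.72 for Cyp46a1, -1.57 for Cyp4b1 of family 4 and -1.30 for Cyp39a1. Cyp39a1 (chromosome 17, 43667425 to 43751431, plus strand), which hydroxylates oxysterols on a path to bile acids, had 3.27 and 5.72 TPM in TGFbeta libraries and 11.8 and 9.89 TPM in vehicle libraries. Both TGFbeta values lay below both vehicle values. The change, -1.14 on the log2 scale with an SE of 0.26, missed the threshold (limma adjusted p = 0.0609).

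Cyp46a1 (chromosome 12, 108334381 to 108362234, plus strand), the cholesterol hydroxylase known from neurons, had 0.508 and 1.09 TPM in TGFbeta libraries and 2.63 and 2.79 TPM in vehicle libraries, again with no overlap. Its log2 change was -1.06 (SE 0.25, limma adjusted p = 0.0655). Cyp7b1 (chromosome 3, 18071950 to 18243338, minus strand), another oxysterol hydroxylase, had 1.39 and 1.72 TPM in TGFbeta libraries and 4.16 and 3.0 TPM in vehicle libraries. These groups did not overlap either, and the log2 change was -0.83 (SE 0.23, limma adjusted p = 0.0956). Cyp39a1 passed when the fit was limited to genes with a mean of at least 5 TPM (limma adjusted p = 0.0297) and, with Cyp46a1, in a robust fit (limma adjusted p = 0.0408 and 0.0467).

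Cyp27a1 (chromosome 1, 74713574 to 74737892, plus strand), the mitochondrial sterol hydroxylase that is about as abundant here as Cyp1b1, had closer values. It had 59.2 and 50.4 TPM in TGFbeta libraries and 54.7 and 57.2 TPM in vehicle libraries, which overlap. The 95% interval of its log2 change of -0.03 ran from -0.38 to 0.32 (limma adjusted p = 0.913). Whether it differed from the other 3 in response was not tested. The liver enzymes of bile acid synthesis were silent, with Cyp7a1 at no more than 0.42 TPM and Cyp8b1 listed at 0.

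Beside these P450s, Ch25h, a non-P450 enzyme that also makes an oxysterol, fell with TGFbeta. It had 6.64 and 7.83 TPM in TGFbeta libraries and 23.2 and 17.4 TPM in vehicle libraries, with a log2 change of -1.36 (SE 0.20, limma adjusted p = 0.0235). Hsd3b7, the next enzyme towards bile acids, had 48.1 and 40.7 TPM in TGFbeta libraries and 55.6 and 55.9 TPM in vehicle libraries (limma adjusted p = 0.233). The call of Ch25h was lost when any 1 of the 4 libraries was left out (limma adjusted p between 0.0784 and 0.143), while the log2 change ran from -1.56 to -1.16. Such a fit has a group of 1 library, which is assumed to vary like the other group, and without either vehicle library it called 0 of all 15815 genes, so a lost call there says nothing about stability. Ch25h and Hsd3b7 belong to a list of 16 tested sterol and steroid enzymes beside P450, of which 0 rose and 2 fell, the other being Hsd11b1, which regenerates active glucocorticoid, at -0.85 (limma adjusted p = 0.0405), a call lost after median scaling (0.0551), with a log2 change from -0.98 to -0.73 when 1 library was left out. The list median was -0.24. Of all tested genes 1.54% were called higher and 4.38% lower. Cyp51 of cholesterol synthesis had 177 and 207 TPM in TGFbeta libraries and 144 and 126 TPM in vehicle libraries (log2 change 0.50, limma adjusted p = 0.108).

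**Figure D3:**
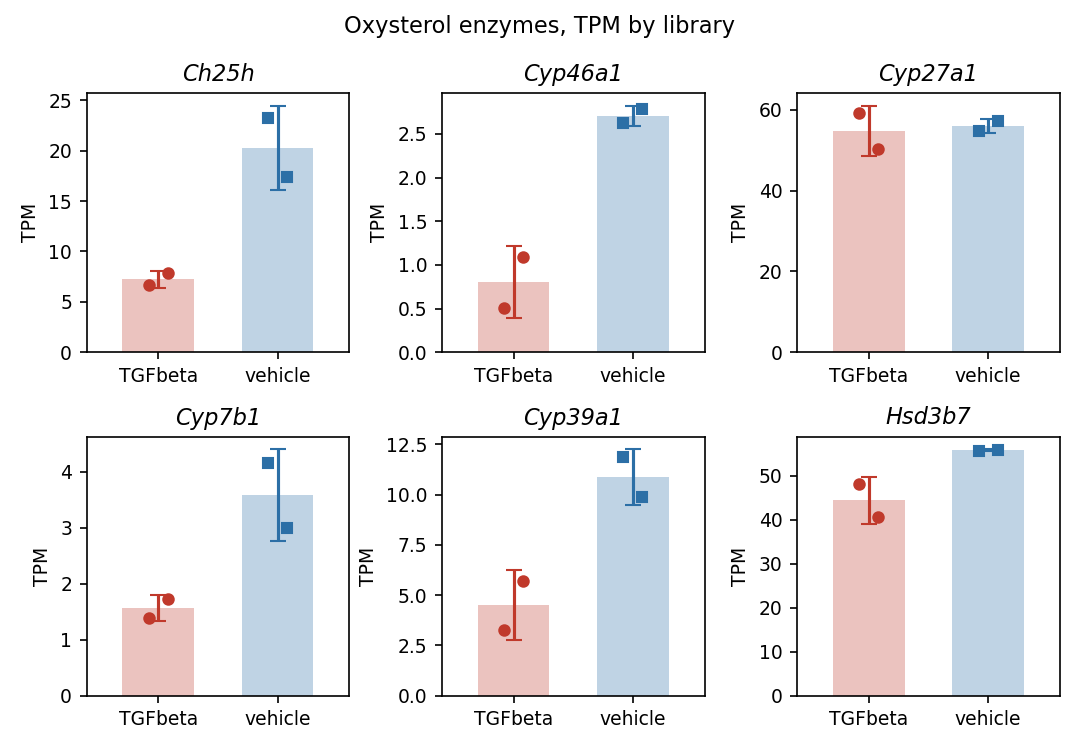
TPM of 6 oxysterol enzymes by library, with TGFbeta on the left and vehicle on the right; bars give the mean, error bars the SD and points the 2 libraries of each group. Both TGFbeta points lie below both vehicle points in every panel except that of Cyp27a1. Such a separation was found for 39.8% of all tested genes. The 6 genes were chosen after their values were seen, and of them Ch25h alone was called.

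Of the 6 steroid hormone genes, 3 were not silent, and they lay at low levels. Cyp19a1, which encodes aromatase and turns androgens into oestrogens, had 2.35 and 2.33 TPM in TGFbeta libraries and 1.98 and 2.07 TPM in vehicle libraries. The TGFbeta values were higher in both libraries, but the log2 change of 0.14 had a 95% interval from -0.35 to 0.64 (limma adjusted p = 0.717). Cyp11a1, which starts steroid synthesis from cholesterol, had 1.01 and 0.841 TPM in TGFbeta libraries and 1.04 and 0.993 TPM in vehicle libraries. Cyp17a1, which makes androgen precursors, had 0.226 and 0.986 TPM in TGFbeta libraries and 0.411 and 1.59 TPM in vehicle libraries, so libraries of 1 group differed more than the groups did. Cyp21a1, Cyp11b1 and Cyp11b2 were silent. Of 7 markers of steroid-producing cells 4 were silent, among them Nr5a1, their defining factor, at or below 0.205 TPM. The other 3 were detected. Star, which carries cholesterol into mitochondria, had 2.92 and 2.8 TPM in TGFbeta libraries and 4.2 and 3.84 TPM in vehicle libraries, Insl3, a peptide hormone of Leydig cells, had 2.66 and 3.54 TPM in TGFbeta libraries and 2.07 and 3.63 TPM in vehicle libraries, and Fdx1, which other cells also express, lay between 21.4 and 26.7 TPM.

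Among vitamin D enzymes, Cyp2r1, which carries out the first hydroxylation, had 3.59 and 4.2 TPM in TGFbeta libraries and 5.50 and 3.91 TPM in vehicle libraries. The groups overlapped, with a log2 change of -0.21 (limma adjusted p = 0.621). Cyp27b1, which makes the active hormone, had 0.611 and 1.12 TPM in TGFbeta libraries and 0.549 and 0.830 TPM in vehicle libraries. Cyp24a1, which inactivates the hormone and is a classic target of the vitamin D receptor, was silent with at most 0.257 TPM.

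Retinoic acid is cleared by family 26. Cyp26b1 had 3.17 and 9.55 TPM in TGFbeta libraries and 7.64 and 5.05 TPM in vehicle libraries. The TGFbeta libraries bracketed both vehicle libraries. The 95% interval of its log2 change of -0.12 was wide, from -1.21 to 0.96 (limma adjusted p = 0.896). Cyp26a1 had 2.32 and 2.88 TPM in TGFbeta libraries and 1.45 and 2.11 TPM in vehicle libraries, with a log2 change of 0.38 (limma adjusted p = 0.382). Cyp26c1 was silent.

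Some genes that make and carry retinoids were called. Of 14 tested retinoid genes, 4 fell and 9 did not pass (median -0.17). Among all tested genes 4.38% were called lower. Aldh1a2, which makes retinoic acid, had 56.2 and 69.1 TPM in TGFbeta libraries and 167 and 121 TPM in vehicle libraries, and fell by 1.18 on the log2 scale (limma adjusted p = 0.0305). Aldh1a1, of the same role, fell by 0.89 (limma adjusted p = 0.0344), Fabp5, a carrier of fatty acids and retinoic acid, by 0.79 (limma adjusted p = 0.0486) and Dhrs3, which turns retinal back into retinol, by 0.74 (limma adjusted p = 0.0372). With 1 library left out the log2 change ran from -1.41 to -0.95 for Aldh1a2, -1.04 to -0.74 for Aldh1a1, -0.94 to -0.64 for Fabp5 and -0.83 to -0.65 for Dhrs3, with limma adjusted p between 0.0551 and 0.230. All 4 calls were lost without an intensity trend (0.0550 to 0.0836), and after median scaling that of Aldh1a2 remained. Whether these genes and the family 26 genes differed in response was not tested.

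Of the subfamily 2j, which holds arachidonate epoxygenases, Cyp2j9 had 0.862 and 2.09 TPM in TGFbeta libraries and 3.48 and 3.84 TPM in vehicle libraries. The groups did not overlap, and the log2 change was -0.96 (SE 0.29, limma adjusted p = 0.114). Its neighbour Cyp2j6 had 6.41 and 9.44 TPM in TGFbeta libraries and 7.35 and 7.24 TPM in vehicle libraries, which overlap (log2 change 0.08, limma adjusted p = 0.855). Cyp2j5 had 0.568 and 1.08 TPM in TGFbeta libraries and 1.22 and 0.835 TPM in vehicle libraries. The difference between these neighbours was not tested. Of 8 tested epoxide hydrolases and eicosanoid synthases beside them 0 were called by limma (2 at an unadjusted p under 0.05, median -0.10). The largest changes there were those of Ephx1, which hydrolyses epoxides, at -0.89 (limma adjusted p = 0.0717), Ptges, a prostaglandin E synthase, at -0.70 (limma adjusted p = 0.0743) and Ptgis, the P450-type prostacyclin synthase, at 0.23 (limma adjusted p = 0.439).

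Family 4 gave 7 tested genes with log2 changes from -0.81 to 0.07. Cyp4b1, which oxidises fatty acids and is known from lung, had 0.354 and 0.599 TPM in TGFbeta libraries and 1.5 and 1.65 TPM in vehicle libraries. The groups lay apart at a level near the limit of silence, with a log2 change of -0.81 (SE 0.23, limma adjusted p = 0.104). Over the settings this ran from -1.57 to -0.26, the extremes being pseudocounts of 0.1 and 5.

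The Cyp4f cluster held 3 detected genes. Cyp4f13 had 20.8 and 23.4 TPM in TGFbeta libraries and 28.5 and 46.3 TPM in vehicle libraries, Cyp4f17 had 23.0 and 20.9 TPM in TGFbeta libraries and 27.9 and 33.2 TPM in vehicle libraries, and Cyp4f16 had 42.6 and 40.8 TPM in TGFbeta libraries and 38.4 and 44.5 TPM in vehicle libraries. Cyp4f13 and Cyp4f17 were separated between groups and Cyp4f16 was not. Their log2 changes were -0.70, -0.46 and 0.01 (limma adjusted p = 0.149, 0.149 and 0.968), and whether they differed from each other was not tested. Cyp4v3, a fatty acid hydroxylase whose human counterpart is mutated in a retinal dystrophy, had 7.47 and 8.48 TPM in TGFbeta libraries and 12.0 and 10.2 TPM in vehicle libraries, separated but not past the test (log2 change -0.43, limma adjusted p = 0.215). Cyp4x1 and Cyp4a31 overlapped between groups, at 1.47 to 2.11 TPM in TGFbeta libraries and 1.47 to 1.78 TPM in vehicle libraries.

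Cyp20a1 (chromosome 1, 60343323 to 60388060, plus strand), an orphan P450 with no established substrate, was the member with the highest log2 change at the pseudocount of 1. It had 44.0 and 50.7 TPM in TGFbeta libraries and 36.4 and 33.5 TPM in vehicle libraries. Both TGFbeta libraries were higher, and the log2 change was 0.43 (SE 0.15, 95% interval 0.07 to 0.78, limma adjusted p = 0.145). Its sign was the same in all 13 alternatives, in a range from 0.33 to 0.58.

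Of the 5 other family 2 genes tested, 4 overlapped between groups. Cyp2d22, the nearest mouse relative of the human drug enzyme CYP2D6, had 45.7 and 42.6 TPM in TGFbeta libraries and 47.3 and 55.6 TPM in vehicle libraries (log2 change -0.21, 95% interval -0.57 to 0.14, limma adjusted p = 0.430). Cyp2u1, a hydroxylase of long-chain fatty acids, had 11.8 and 10.7 TPM in TGFbeta libraries and 11.8 and 11 TPM in vehicle libraries, and its 95% interval ran from -0.42 to 0.38. Cyp2e1, the ethanol-oxidising enzyme of liver, had 1.24 and 1.22 TPM in TGFbeta libraries and 1.49 and 1.08 TPM in vehicle libraries. Cyp2s1 ran from 1.53 to 2.88 TPM in TGFbeta libraries and from 1.79 to 2.77 TPM in vehicle libraries, and Cyp2t4 from 1.3 to 2.62 TPM in TGFbeta libraries and from 1.77 to 3.81 TPM in vehicle libraries.

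**Figure D4:**
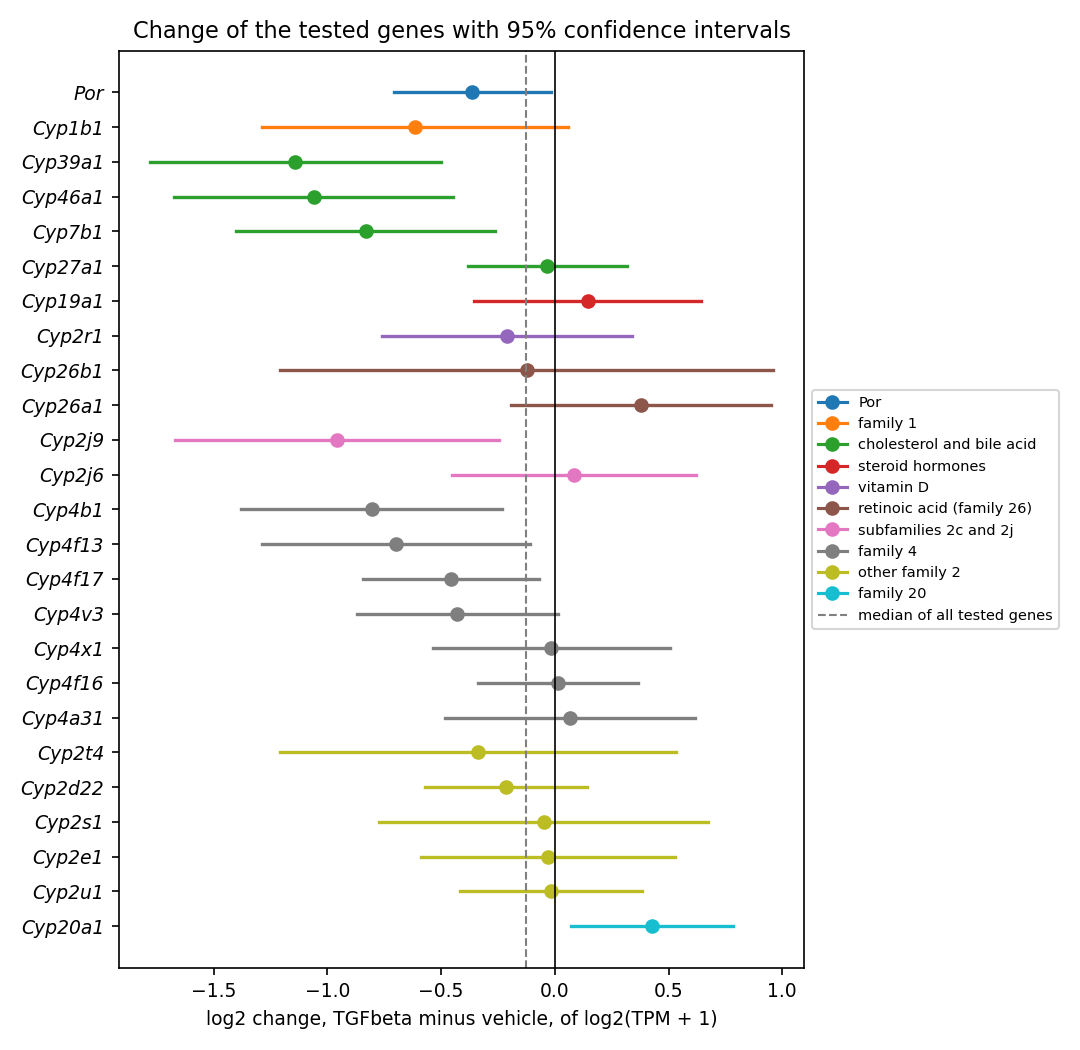
Log2 change (TGFbeta minus vehicle, of log2(TPM + 1)) of the 25 tested genes with 95% confidence intervals from limma, coloured by role group; the dashed line is the median of all tested genes, -0.13. Cyp39a1, Cyp46a1 and Cyp7b1 lie farthest left within the cholesterol group while Cyp27a1 sits at -0.03, and none of the 25 passed the adjusted test.

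The partners of P450 enzymes showed single changes. Of 10 tested redox partners and membrane components, 1 rose, 1 fell and 8 did not pass, with a median of 0.14. The shares called over all tested genes were 1.54% higher and 4.38% lower. Fdxr, the ferredoxin reductase that starts electron transfer to mitochondrial P450s, had 27.5 and 23.5 TPM in TGFbeta libraries and 61.4 and 76.2 TPM in vehicle libraries, and fell by 1.39 on the log2 scale (limma adjusted p = 0.0142). Fdx1, the ferredoxin it reduces, had 21.4 and 23.9 TPM in TGFbeta libraries and 26.4 and 26.7 TPM in vehicle libraries (log2 change -0.22, limma adjusted p = 0.407). Cyb5r2, a cytochrome b5 reductase, rose, with 7.06 and 8.28 TPM in TGFbeta libraries and 3.59 and 2.74 TPM in vehicle libraries (log2 change 1.06, limma adjusted p = 0.0436). Its relative Cyb5r1, at 0.84, did not pass (limma adjusted p = 0.0570). With 1 library left out the log2 change ran from -1.55 to -1.24 for Fdxr and from 0.91 to 1.21 for Cyb5r2, with limma adjusted p between 0.0520 and 0.239.

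Of 15 tested genes of heme synthesis and breakdown 0 rose and 1 fell (median -0.21). This was Ppox, the enzyme before the last step of heme synthesis, at -0.74 (limma adjusted p = 0.0464), a call that was lost after median scaling (0.0989), after quantile normalization (0.0793), and without an intensity trend (0.0805). With 1 library left out its log2 change ran from -0.84 to -0.64 (0.0999 to 0.257). Alas1, the rate-limiting enzyme, had 102 and 105 TPM in TGFbeta libraries and 137 and 165 TPM in vehicle libraries (log2 change -0.54, limma adjusted p = 0.0868). Blvrb, a biliverdin reductase, was at -0.83 (limma adjusted p = 0.0966). Over all tested genes the called shares were 1.54% higher and 4.38% lower.

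Of 8 tested genes of the aryl hydrocarbon receptor and its targets 0 rose and 1 fell (median -0.23). Calls covered 1.54% of all tested genes as higher and 4.38% as lower. Aldh3a1, an aldehyde dehydrogenase, had 1.12 and 1.15 TPM in TGFbeta libraries and 7.28 and 23.9 TPM in vehicle libraries (log2 change -2.75, limma adjusted p = 0.0353). Vehicle 2 was the highest of the 4 for it and for Nqo1, a quinone reductase, at 6.02 and 9.17 TPM in TGFbeta libraries and 13.7 and 36.9 TPM in vehicle libraries (log2 change -1.48, limma adjusted p = 0.111). The log2 change of Aldh3a1 was -3.54 without vehicle 1 and -1.96 without vehicle 2 (limma adjusted p between 0.0828 and 0.120 with any 1 library left out), and its call was lost in a robust fit (0.0690). The receptor gene Ahr overlapped between groups, with 3.46 and 5.60 TPM in TGFbeta libraries and 7.28 and 3.84 TPM in vehicle libraries, and the dimer partner Arnt was at -0.43 (limma adjusted p = 0.143).

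Of 11 tested nuclear receptors of P450 genes 0 rose and 1 fell (median -0.27). Nr1h4, the bile acid receptor, had 1.90 and 2.06 TPM in TGFbeta libraries and 6.18 and 7.78 TPM in vehicle libraries (log2 change -1.41, limma adjusted p = 0.0228), and the change ran from -1.56 to -1.27 with 1 library left out (0.0848 to 0.175). The drug-sensing receptors Nr1i2, with at most 0.105 TPM, and Nr1i3, with at most 0.521 TPM, were silent. Enzymes that conjugate or export oxidised products had a median of -0.48, with 1 higher and 4 lower of 16. Among all tested genes 1.54% were called higher and 4.38% lower. Gstt1, a glutathione transferase, had 38.5 and 42.8 TPM in TGFbeta libraries and 136 and 154 TPM in vehicle libraries (log2 change -1.81, limma adjusted p = 0.00633). Gstm1, of the same function, had 234 and 218 TPM in TGFbeta libraries and 560 and 1328 TPM in vehicle libraries, at -1.93 (limma adjusted p = 0.0436). The glucuronidating enzyme Ugt1a6a had 5.97 and 8.30 TPM in TGFbeta libraries and 19.2 and 42.7 TPM in vehicle libraries, at -1.89 (limma adjusted p = 0.0437). The calls of Gstm1 and Ugt1a6a were lost in a robust fit (limma adjusted p = 0.103 and 0.0598). They were also lost after quantile normalization and without an intensity trend. Vehicle 2 was far above vehicle 1 for both, and without vehicle 1 the log2 change was -2.55 for Gstm1 and -2.44 for Ugt1a6a, while without vehicle 2 it was -1.31 for Gstm1 and -1.33 for Ugt1a6a. The microsomal transferase Mgst1 was at -1.18 (limma adjusted p = 0.0264). Gsto1, an omega class transferase, rose by 1.48 (limma adjusted p = 0.0166). Without vehicle 1 and without vehicle 2 all 5 calls were lost (limma adjusted p between 0.0828 and 0.202), and without TGFbeta 1 that of Gstt1 alone remained (0.0327). Without TGFbeta 2 those of Gstt1 and Mgst1 remained, and after median scaling those of Gstt1, Gsto1 and Mgst1.

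**Figure D5:**
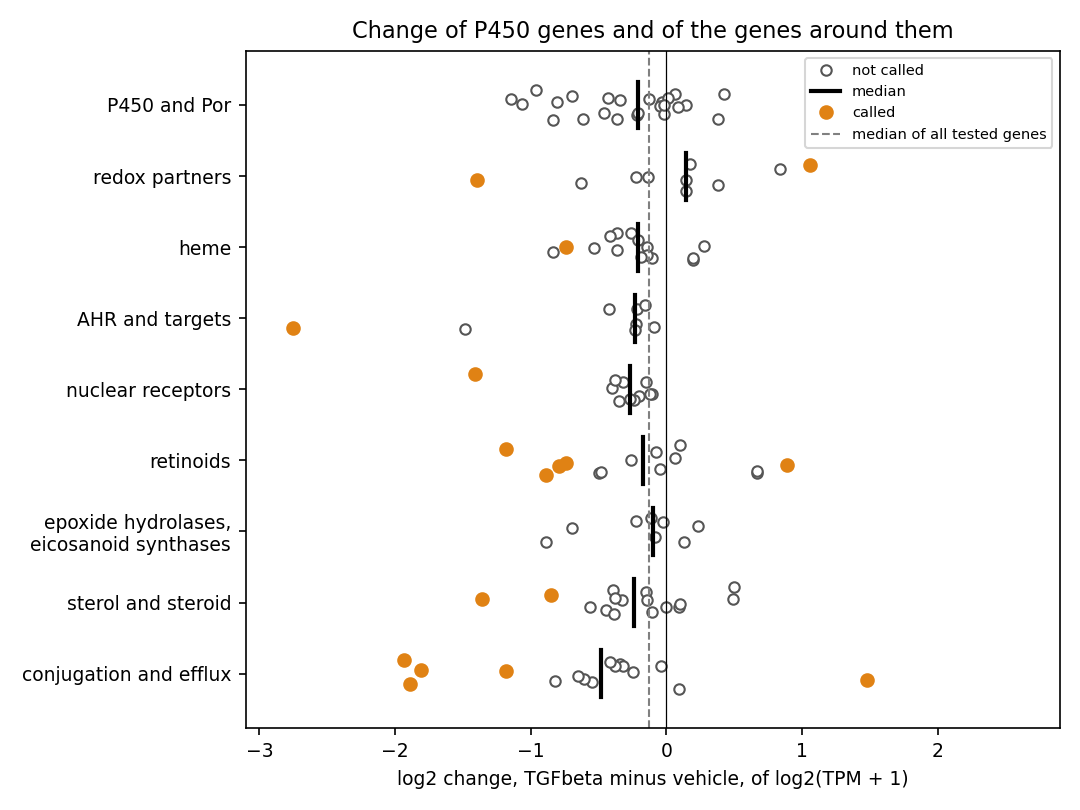
Log2 change (TGFbeta minus vehicle) of each tested P450 gene with Por and of each tested gene in 8 related lists; filled points were called by limma, bars are list medians and the dashed line is the median of all tested genes, -0.13. The P450 row has no filled point, while conjugation and efflux has the lowest median, -0.48.

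The fibroblast label was checked against 10 markers, all of which were tested, and their summed level was 19911 to 21007 TPM in TGFbeta libraries and 20196 to 23780 TPM in vehicle libraries. This sum is mostly collagens and Vim. Col1a1, a fibrillar collagen, had 6221 and 4272 TPM in TGFbeta libraries and 3148 and 2392 TPM in vehicle libraries (limma adjusted p = 0.0958), and Col3a1, another, had 6532 and 6979 TPM in TGFbeta libraries and 11208 and 9018 TPM in vehicle libraries (limma adjusted p = 0.172). Of the 10 markers 0 rose and 2 fell, which were Pdgfra, a growth factor receptor, at -1.42 (limma adjusted p = 0.0106) and Tcf21, a transcription factor of resident cardiac fibroblasts, at -1.11 (limma adjusted p = 0.0148). Over all tested genes 1.54% were called higher and 4.38% lower. Markers of other cell types were also detected, some above and others below the median of tested genes. That median was 14.7 to 17.3 TPM over the 4 libraries. The summed level of 8 endothelial markers was 58.2 to 63.0 TPM in TGFbeta libraries and 78.2 to 82.1 TPM in vehicle libraries. For 8 cardiomyocyte markers it was 53.7 to 56.6 TPM in TGFbeta libraries and 73.2 to 114 TPM in vehicle libraries. Most of that was Tnnt2, with 35.2 and 34.6 TPM in TGFbeta libraries and 47.0 and 81.4 TPM in vehicle libraries (limma adjusted p = 0.125), and Tnni3, with 7.62 and 10.8 TPM in TGFbeta libraries and 14.8 and 17.6 TPM in vehicle libraries (limma adjusted p = 0.0955), both parts of troponin. Myh6, Actc1 and Ryr2 stayed under 1 TPM. For 10 macrophage and leukocyte markers it was 62.2 to 67.8 TPM in TGFbeta libraries and 78.1 to 95.3 TPM in vehicle libraries. Most of that was Lyz2, with 42.9 and 48.1 TPM in TGFbeta libraries and 55.2 and 66.4 TPM in vehicle libraries (limma adjusted p = 0.177). Of the 7 tested, 3 (Lyz2, Cd68 and Cd14) were lower in both TGFbeta libraries, while Ptprc, Adgre1, Csf1r and Itgam overlapped between groups. The endothelial, cardiomyocyte and macrophage sums were lower in both TGFbeta libraries, as were the pericyte and smooth muscle, mesothelial and steroid-cell sums given below. The same held for 11 of the 25 tested P450 members (44%) and for 39.8% of all tested genes. The part of other cells in the P450 values was not tested. For 8 pericyte and smooth muscle markers the sum was 84.0 to 86.0 TPM in TGFbeta libraries and 113 to 120 TPM in vehicle libraries, but the markers went both ways, with a median log2 change of 0.43 over the 6 tested. Notch3, a receptor of mural cells, fell, with 21.1 and 17.4 TPM in TGFbeta libraries and 74.0 and 83.9 TPM in vehicle libraries (limma adjusted p = 0.00633). Mcam, an adhesion molecule, rose, with 29.3 and 29.4 TPM in TGFbeta libraries and 15.2 and 13.6 TPM in vehicle libraries (limma adjusted p = 0.0242). Cspg4 and Myh11 were higher in both TGFbeta libraries and were not called. Markers of adipocytes summed to 10.3 to 24.4 TPM in TGFbeta libraries and 16.4 to 22.6 TPM in vehicle libraries, mesothelial markers to 12.1 to 12.5 TPM in TGFbeta libraries and 14.4 to 17.1 TPM in vehicle libraries, glial markers to 5.16 to 5.61 TPM in TGFbeta libraries and 5.31 to 7.50 TPM in vehicle libraries, and those of steroid-producing cells to 27.2 to 30.4 TPM in TGFbeta libraries and 32.9 to 34.8 TPM in vehicle libraries.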

How the data were processed

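Per the file headers, the values deposited by the authors are TPM, with 33641 gene symbols per library in 4 libraries, and each library was checked to total 1000000. The aligner, the quantifier and the genome build were not given in the sources used here. Groups come from the sample titles. Members were selected by symbol. The members and gene lists were chosen with earlier results of these data known.

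Genes averaging at least 1 TPM over the 4 libraries (15815) were tested on log2(TPM + 1) by limma 3.58.1 under R 4.3.3 (eBayes, variance trend on intensity), two-sided, in a model holding treatment alone, which was first tested on simulated data. This pseudocount shrinks the change of genes near 1 TPM. A log2 change is TGFbeta minus vehicle. All tested members were named, and from each related list the called genes or up to 3 with the largest absolute change; others, such as Cyp51, Hsd3b7, Fdx1, Ahr and single cell type markers, were named after their values were seen. Positions are from GENCODE M21 and promoters from RefSeq, both matched by symbol. The 13 alternatives were other pseudocounts, filters, scalings and variance models, a replicate block and each library left out. The result of 1 gene of the retinoid list is not reported here.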

Additional observations from a re-analysis of the deposited data

How the results depend on the processing

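No P450 member was called higher under any of the 13 alternatives, and none lower under 11 of them (limma; 9 of 25 had an unadjusted p under 0.05 in the fit as reported). The exceptions were 1 called lower with a mean TPM of at least 5 (Cyp39a1) and 2 in the robust fit (Cyp39a1 and Cyp46a1). The limit of 5 TPM left 13 members tested, and of all 11463 genes then tested 1034 were called lower; in the robust fit 910 of 15815 were. Over all genes the 936 calls became 0 when every gene above 0 was tested, 602 without an intensity trend, and between 0 and 203 with 1 library left out, the count being 0 without vehicle 1, also 0 without vehicle 2, then 171 without TGFbeta 1 and 203 without TGFbeta 2. All genes split into 244 higher and 692 lower calls, against 421 higher and 401 lower after median scaling. The silent count of 66 was 56 with a limit of 0.5 TPM and 73 with a limit of 2 TPM.

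Of 313 log2 changes of members under alternatives, 26 turned sign, and 15 of the 25 members kept 1 sign throughout. After median scaling and quantile normalization these were Cyp27a1 (0.12 and 0.10), Cyp2u1 (0.14 and 0.15), Cyp26b1 (0.030 and 0.055), Cyp2s1 (0.11 and 0.11), Cyp4x1 (0.14 and 0.13) and Cyp2e1 (0.13 and 0.11). With 1 library left out the values ran from -0.092 to 0.12 for Cyp4f16, -0.084 to 0.047 for Cyp2u1, -0.79 to 0.54 for Cyp26b1, -0.033 to 0.0022 for Cyp4x1, -0.16 to 0.10 for Cyp2e1, -0.74 to 0.060 for Cyp2t4, -0.36 to 0.26 for Cyp2s1, -0.074 to 0.21 for Cyp4a31, -0.15 to 0.080 for Cyp27a1 and -0.16 to 0.33 for Cyp2j6. Median scaling shifts every log2 change by the same amount, which took the median of all tested genes from -0.13 to 0.03. The cause of the other sign changes was not tested.

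The replicate number of the labels was not taken to pair libraries, since nothing else ties them, and deviations of TGFbeta 1 and vehicle 1 from their group means correlated at -0.0539 across genes. With the replicate number as a block 0 members were called higher and 0 lower by limma, and 631 of all genes were called. Of the 17 called list genes 12 remained under the block, those lost being Cyb5r2, Ppox, Dhrs3, Fabp5 and Hsd11b1. TPM keeps no read number, so depth cannot limit any statement here in a known way.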
